A study of Mus musculus with 6 samples.

Results

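Of 24411 genes counted in mouse cortical neuron cultures, 10 well-known transcriptional targets of the tumour suppressor p53 (Trp53 in mouse) are described here: Cdkn1a, Ccng1, Mdm2, Sesn1 and Zmat3, which act on the cell cycle, growth or p53 itself, and Bbc3, Bax, Eda2r, Phlda3 and Trp53inp1, which act in cell death. They were taken by gene symbol, and all 10 were in the table and had enough counts to be tested. Preformed fibrils (PFF) of mouse α-synuclein, aggregates assembled outside the cell, were put into the medium of PFF cultures at 3.45 µM on day 10 in vitro. Control cultures (PBS) were given phosphate-buffered saline, so the comparison includes everything added with the fibrils. All cultures were dissociated from the cortex of embryos of day 18, and total RNA was taken on day 18 in vitro. Each group held 3 libraries, and nothing in the labels says that they came from separate cultures, so p-values measure the spread between these libraries, which may be technical. The labels name no strain or genotype.

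p53 is a transcription factor that is kept low by the ubiquitin ligase Mdm2 and is stabilised after DNA damage and other stress. It binds elements made of a pair of short half-sites, which lie near its target genes, and switches on genes that stop division, repair DNA, feed back on p53 or start apoptosis. Neurons do not divide, and in them p53 is best known for driving developmental and injury-induced death through the BCL2 family. The dividing cells of such cultures, glia and their progenitors, use the cell cycle targets as well.

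Library totals ran from 9224974 to 10742383 estimated counts. On the second principal component replicate 3 of both groups stood apart from the other libraries, so results are also given for replicates 1 and 2 only. Markers of neurons were abundant, with sums of 7270 to 8040 CPM (counts scaled to a common library size) in PFF and 7414 to 7695 in PBS over 14 genes, of which 2 rose. The cultures also held glia, whose markers moved in the same libraries. By the test given below, 3.98% of all genes rose and 2.60% fell. Of 14 tested microglia markers 13 rose (summed level 594 to 723 CPM in PFF, 208 to 325 in PBS), and of 8 tested markers of myelinating oligodendrocytes 6 rose (659 to 995 CPM in PFF, 409 to 505 in PBS). Of 10 markers of oligodendrocyte progenitors 9 fell (632 to 682 CPM in PFF, 848 to 1043 in PBS), and of 12 astrocyte markers 4 fell (3856 to 4865 CPM in PFF, 3923 to 5111 in PBS). No marker was at 0 in every library, and Tmem119, Opalin and Aspa had too few counts to be tested. The part of these cell types in the p53 target results was not tested.

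In PFF cultures 4 of the 10 targets fell and 0 rose, at an adjusted p under 0.05 in edgeR's quasi-likelihood test with Benjamini-Hochberg adjustment over 13919 genes. Across all genes 6.58% were called by the same rule, of which those that fell made up 2.60% and those that rose 3.98%. By unadjusted p under 0.05, and in DESeq2 and limma-voom, the members gave the same counts of 4 and 0. Over all genes 21.2% had an unadjusted p under 0.05, 10.6% with PFF higher and 10.5% with PFF lower. The groups did not overlap for 4 of the 10, all lower in PFF, while over all genes 25.0% did not overlap, 13.4% with PFF higher and 11.6% with PFF lower. The 4 were the receptor gene Eda2r, the cyclin gene Ccng1, the AKT inhibitor gene Phlda3 and the stress protein gene Trp53inp1. Cdkn1a and Mdm2, the targets most often read as a measure of p53 activity, did not pass, nor did Sesn1, Zmat3, Bax or Bbc3. The median log2 fold change was -0.08 over the 5 cell cycle and feedback targets, of which 1 fell, and -0.43 over the 5 cell death targets, of which 3 fell, against -0.00056 over all genes tested. In total RNA of mixed cultures, fewer cells of a type and less RNA per cell cannot be told apart. With replicates 1 and 2 only, 5 targets fell and 0 rose, Bax being added. In that setting 1169 of all 13953 genes tested fell and 1225 rose, against 362 and 554 of 13919 in the main fit. Without PFF 2, 2 targets fell, Ccng1 and Eda2r, and 100 of all 14069 genes tested fell.

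**Figure D1:**
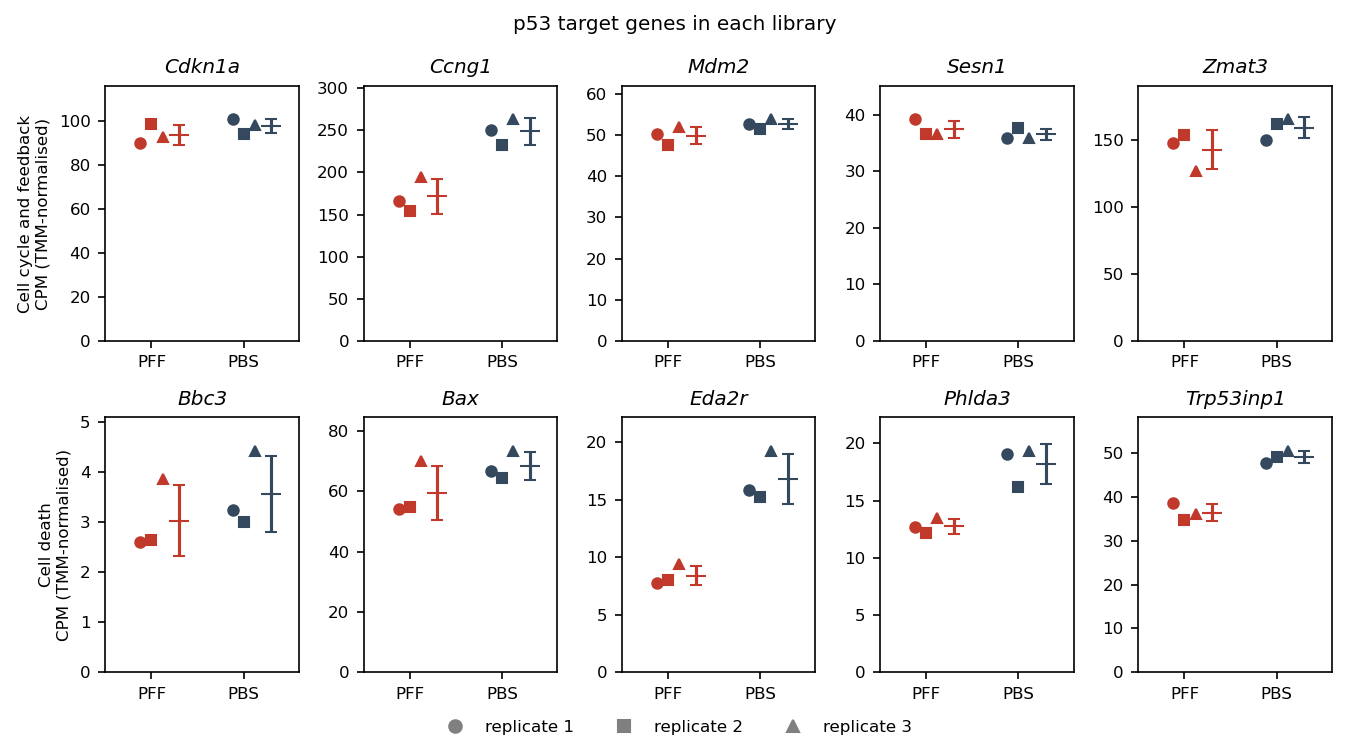
CPM of each p53 target (vertical axes, from 0, normalised by the trimmed mean of M-values) in the 3 PFF and 3 PBS libraries, with marker shapes for the replicate number and bars for mean and SD. The groups do not overlap for Ccng1, Eda2r, Phlda3 and Trp53inp1, where PFF is lower, and overlap for the other 6.

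Because the targets share a regulator, the windows from 250 bases before to 50 bases after their annotated starts were searched for the p53 half-site consensus. RefSeq promoter windows (GRCm38.p6) were found for 8 of the 10 genes, in 12 windows. An exact half-site was present in 5 of the 12, one each of Cdkn1a, Ccng1, Mdm2, Sesn1 and Bax, against 8.36% of all 32851 windows of that length. The consensus reads the same on both strands, so 1 strand covers both. A full site, meaning half-sites at most 13 bases apart with at most 2 mismatches in all and the fixed C and G of each kept, was present in 4 of the 12 windows, those of Cdkn1a, Ccng1, Sesn1 and Bax, against 4.09% of all windows. The sequences below show these matches in the genes that fell and in those that did not. Capitals mark each exact half-site and its partner in the closest full site, and each sequence is given on the strand of its gene.
Ccng1: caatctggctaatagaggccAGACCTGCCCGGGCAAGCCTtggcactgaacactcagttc
Cdkn1a: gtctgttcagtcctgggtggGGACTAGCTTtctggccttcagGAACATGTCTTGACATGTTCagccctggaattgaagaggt
Mdm2: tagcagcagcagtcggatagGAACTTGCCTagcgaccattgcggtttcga
Sesn1: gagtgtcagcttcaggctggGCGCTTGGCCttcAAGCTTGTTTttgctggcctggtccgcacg
Bax: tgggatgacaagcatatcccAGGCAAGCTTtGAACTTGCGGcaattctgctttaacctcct

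The Ccng1 stretch is chr11:40755442-40755501 on the minus strand, and its full site, with 1 mismatch and no bases between the half-sites, begins at position -195 from the start of transcription. The Cdkn1a stretch is chr17:29090886-29090967 on the plus strand, before the upstream of 2 annotated starts, with exact half-sites at -73 and -51 that are 12 bases apart and make a full site with 0 mismatches. The half-site at -51 also makes one with its direct neighbour, with 1 mismatch. The window of the downstream Cdkn1a start held none. The Mdm2 stretch, chr10:117710915-117710964 on the minus strand, held a lone half-site at -186. The Sesn1 stretch, chr10:41887233-41887295 on the plus strand, and the Bax stretch, chr7:45467059-45467119 on the minus strand, each held a full site with 2 mismatches. The windows of Eda2r and Phlda3, which both fell, and all 3 windows of Bbc3 held no whole match to these letters. The last bases of the Phlda3 window match the start of a half-site, which the window's edge cuts off. Trp53inp1, which also fell, and Zmat3 had no window. Sites outside the windows were not searched, so a gene without a match here may still have one. The Eda2r window is printed whole for comparison, from chrX:97377160-97377459 on the minus strand.
Eda2r: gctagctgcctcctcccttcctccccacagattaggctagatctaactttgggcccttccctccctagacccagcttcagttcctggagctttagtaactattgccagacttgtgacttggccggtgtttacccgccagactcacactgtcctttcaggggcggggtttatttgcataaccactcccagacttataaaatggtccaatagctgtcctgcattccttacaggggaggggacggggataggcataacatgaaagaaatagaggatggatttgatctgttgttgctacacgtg

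Eda2r encodes a death-domain-free relative of the tumour necrosis factor receptors that binds ectodysplasin A2. It lies on chromosome X from 97333840 to 97377216 (GENCODE M21 on GRCm38, as for the genes below). Its level was 7.81, 8.03 and 9.39 CPM in PFF replicates 1 to 3, against 15.8, 15.2 and 19.2 CPM in PBS replicates 1 to 3. Every PFF library thus lay below every PBS library, by a wide gap. On the log2 scale PFF over PBS was -0.997 ± 0.14 (SE; n = 3 per group, here and below), with an adjusted p of 0.000529. PFF was at 0.501 of the PBS level (95% interval 0.407 to 0.617), and the call held under all 16 alternatives, with adjusted p up to 0.00604.

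Phlda3 encodes a small pleckstrin-homology protein that competes with AKT for membrane lipids and so limits its survival signal. The gene is on chromosome 1 from 135766119 to 135769136. It was measured at 12.7, 12.1 and 13.4 CPM in PFF and 19.1, 16.2 and 19.3 CPM in PBS. The groups did not overlap, and PBS 2 was the PBS library nearest to PFF. This gave a log2 fold change of -0.51 ± 0.12 with an adjusted p of 0.0193. Leaving out PBS 1, PBS 3, PFF 1 or PFF 2 ended the call (adjusted p = 0.0910, 0.0596, 0.0595 and 0.106), while its log2 fold change stayed between -0.59 and -0.46 under all 16 alternatives.

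Trp53inp1 encodes a stress-induced protein that works with p53 in apoptosis and binds the autophagy machinery. It is on chromosome 4 from 11156431 to 11174379. Levels were 38.5, 34.7 and 36.0 CPM in PFF and 47.6, 48.9 and 50.4 CPM in PBS. The libraries of each group lay close together and the groups were apart. The fit gave a log2 fold change of -0.43 ± 0.08, with an adjusted p of 0.00628. Without PFF 2 the adjusted p was 0.0520.

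Bax and Bbc3, the BCL2 family members among the 10, did not pass. Bax, which opens pores in the outer mitochondrial membrane, had 54.0, 54.8 and 69.9 CPM in PFF and 66.7, 64.6 and 73.4 CPM in PBS. PFF 3 lay within the PBS range and the other PFF libraries below it. Its log2 fold change was -0.20 ± 0.10 (adjusted p = 0.290), with a 95% interval of -0.42 to 0.02. With replicates 1 and 2 only, Bax fell by 0.26 on the log2 scale (adjusted p = 0.0230), and without PFF 3 alone by 0.33 (0.0197). The exons of Bax share 12.2% of their bases with the gene model Gm45808 on the same strand, so its counts may include reads of that model. Bbc3, which encodes the BH3-only protein PUMA, was the lowest in counts, with 27 to 39 counts per PFF library and 30 to 46 per PBS library. It had 2.60, 2.64 and 3.86 CPM in PFF and 3.25, 3.01 and 4.43 CPM in PBS, with overlapping groups (log2 fold change -0.24 ± 0.24, adjusted p = 0.625). The interval ran from 0.593 to 1.22 times the PBS level, so a fall or a rise within it is not excluded.

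Ccng1, which encodes cyclin G1, a protein that recruits a phosphatase to Mdm2, is the member of the cell cycle and feedback group that fell. It is on chromosome 11 from 40748552 to 40755311. Levels were 166, 155 and 195 CPM in PFF and 251, 232 and 263 CPM in PBS. The highest PFF library, replicate 3, lay below the lowest PBS library. The log2 fold change was -0.53 ± 0.09 with an adjusted p of 0.00270, and PFF was at 0.691 of the PBS level (95% interval 0.603 to 0.792). The call held under all 16 alternatives, with adjusted p up to 0.0265. For its family member Ccng2 the value was -0.05 ± 0.09 (adjusted p = 0.826), and it was 0.016 without PBS 2.

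Cdkn1a encodes p21, the inhibitor of cyclin-dependent kinases through which p53 stops division, and is on chromosome 17 from 29090976 to 29100727. It was measured at 90.0, 98.9 and 92.8 CPM in PFF and 101, 94.3 and 98.4 CPM in PBS. The ranges overlapped, PFF 2 lying above PBS 2 and PBS 3. The fit gave -0.06 ± 0.07 as log2 fold change (adjusted p = 0.700), and its interval placed PFF between 0.860 and 1.07 times PBS. On the opposite strand, 7.68% of its exonic bases overlap another gene model.

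Mdm2 is on chromosome 10 from 117688875 to 117710758 and had 50.1, 47.6 and 51.8 CPM in PFF against 52.6, 51.5 and 53.8 CPM in PBS. The highest PFF library exceeded the lowest PBS library by a small margin. PFF over PBS was -0.08 ± 0.08 on the log2 scale (adjusted p = 0.613; 0.843 to 1.06 times PBS). Sesn1, a stress-induced sestrin that restrains growth signalling through mTORC1, is on the same chromosome from 41809935 to 41908424. It had 39.2, 36.6 and 36.6 CPM in PFF and 36.0, 37.7 and 36.0 CPM in PBS, with overlapping groups. It was the only member with a positive log2 fold change, 0.04 ± 0.08 (adjusted p = 0.852; 0.905 to 1.16 times PBS).

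Zmat3 encodes a zinc finger protein that binds RNA and alters splicing downstream of p53, and is on chromosome 3 from 32334792 to 32366014. Its levels were 148, 154 and 127 CPM in PFF and 151, 162 and 166 CPM in PBS. PFF 3 was the lowest library, while PFF 2 lay above PBS 1. The log2 fold change was -0.16 ± 0.08 (adjusted p = 0.306), and it was -0.04 with replicates 1 and 2 only (adjusted p = 0.736). Zmat3 was also the only member whose deposited values were not whole numbers, in all 6 libraries.

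**Figure D2:**
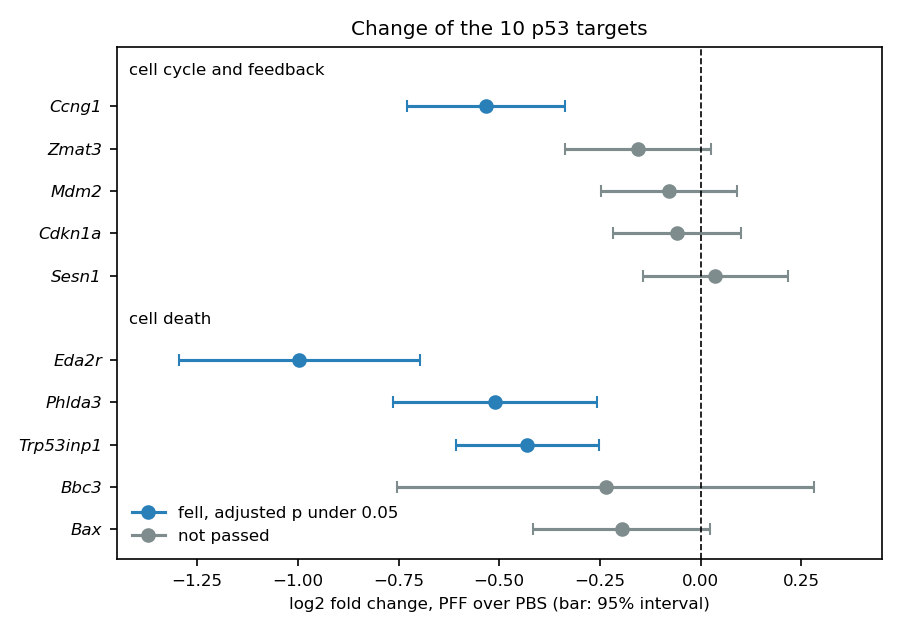
Log2 fold change of the 10 p53 targets, PFF over PBS (horizontal axis), with 95% intervals from edgeR's quasi-likelihood fit, cell cycle and feedback targets above cell death targets. Ccng1, Eda2r, Phlda3 and Trp53inp1 lie to the left of 0 with their whole intervals, and the intervals of the other 6 include 0.

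Replicate 3 held the highest level of 6 of the 10 targets within PFF and also within PBS, namely Ccng1, Mdm2, Bbc3, Bax, Eda2r and Phlda3. The share of all genes with this pattern was not counted. Replicate 3 of both groups also stood apart over all genes on the second principal component, so the pattern may not be particular to these targets. Comparing pairs of genes inside a library removes the effect of library scaling. The count of Ccng1 was 1.84, 1.56 and 2.10 times that of Cdkn1a in PFF libraries and 2.48, 2.46 and 2.67 times in PBS libraries. The ratios did not overlap, and their mean differed by -0.48 on the log2 scale. For Eda2r over Cdkn1a the ratios were 0.0867, 0.0812 and 0.101 in PFF and 0.157, 0.162 and 0.196 in PBS, a difference of -0.93. Phlda3 and Trp53inp1 over Cdkn1a differed by -0.45 and -0.37, again without overlap. Mdm2 over Cdkn1a overlapped between the groups, at 0.557, 0.481 and 0.558 in PFF and 0.522, 0.546 and 0.547 in PBS, a difference of -0.02. Of 13 such ratios, chosen with the values known, 9 did not overlap. Each of the 9 had p = 0.1 in a two-sided exact permutation test, the smallest that 3 against 3 libraries can give, and 0.144 after Benjamini-Hochberg adjustment over the 13. With this number of libraries the test cannot reach the threshold.

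**Figure D3:**
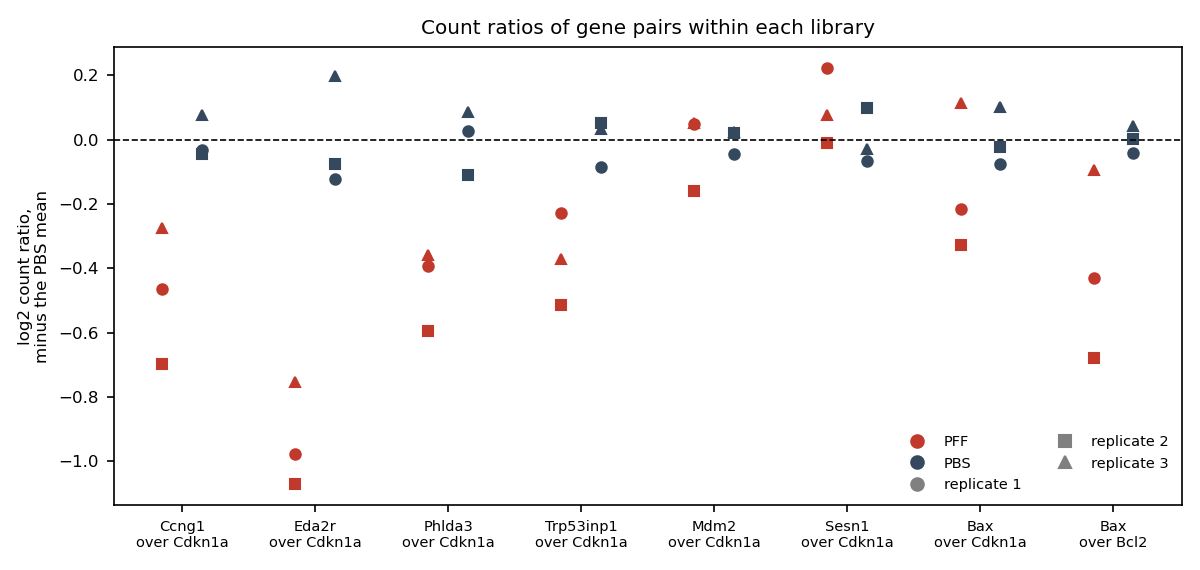
Log2 ratio of the estimated counts of gene pairs within each library, minus the mean of the PBS libraries (vertical axis), for 8 pairs, with PFF left of PBS and marker shapes for the replicate number. The ratios of Ccng1, Eda2r, Phlda3 and Trp53inp1 to Cdkn1a, and of Bax to Bcl2, lie lower in every PFF library than in any PBS library, while those of Mdm2, Sesn1 and Bax to Cdkn1a overlap.

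The targets differed widely in level. On the scale of CPM per kilobase of exon, which allows genes of unequal length to be compared, Ccng1 stood highest at 48.9 ± 5.91 in PFF and 70.8 ± 4.42 in PBS (mean ± SD). Bax followed at 37.8 ± 5.68 in PFF and 43.3 ± 2.94 in PBS. In PFF the lowest Ccng1 value (44.1, in PFF 2) lay just below the highest Bax value (44.4, in PFF 3). Within each PFF library Ccng1 nevertheless stood above Bax. In PBS the lowest Ccng1 library was at 66.1 and the highest Bax library at 46.6. Cdkn1a came next with 26.4 ± 1.27 in PFF and 27.5 ± 0.944 in PBS, then Zmat3 with 12.5 ± 1.248 in PFF and 14.0 ± 0.697 in PBS. Phlda3 followed Zmat3 in PBS at 11.7 ± 1.11. Its range there overlapped that of Mdm2 (10.3 ± 0.230), though Phlda3 stood higher within each PBS library. In PFF Phlda3 stood lower in the order at 8.19 ± 0.419, below Mdm2 (9.80 ± 0.418) and Sesn1 (9.41 ± 0.382). Trp53inp1 came after these genes in both groups, at 5.62 ± 0.298 in PFF and 7.57 ± 0.215 in PBS. Eda2r and Bbc3 were lowest. Eda2r averaged 1.43 in PFF and 2.85 in PBS, and Bbc3 1.43 in PFF and 1.68 in PBS, so that in PFF they could not be ordered.

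A longer list of 53 other p53 targets was examined next to the 10. Of its 52 tested members 8 fell and 0 rose, against 2.60% and 3.98% of all genes. The median log2 fold change was -0.15 against -0.00056 over all genes. A negative value was found for 35 of the 52, and for 6972 of all 13919 genes tested. By unadjusted p under 0.05, 1 of the 52 was higher (10.6% of all genes), and in DESeq2 1 rose, in each case Plk2, while limma-voom gave 0. Lower by unadjusted p were 7 of 16 cell cycle and growth, 6 of 14 death and autophagy and 4 of 22 repair and metabolism targets. Over all genes 10.5% were lower by that rule. In DESeq2 6 of the 52 fell, and in limma-voom 7. Of the cell cycle and growth targets 3 of 16 fell. Ckap2, a spindle-associated protein, was at 18.6 ± 0.587 CPM in PFF and 31.5 ± 1.22 CPM in PBS (-0.76 ± 0.09, adjusted p = 0.000189) and stayed below the threshold whichever library was omitted, with adjusted p up to 0.00199. The mitotic gene Psrc1 fell by 0.66 and the cyclin gene Ccnd1 by 0.41 on the log2 scale (adjusted p = 0.0284 and 0.00730). Gtse1, a regulator of p53 in G2 (-0.55 ± 0.16, adjusted p = 0.0539), Btg2, an antiproliferative gene (-0.24 ± 0.10, 0.199), and Gadd45a, a DNA damage gene (0.06 ± 0.18, 0.893; -0.018 without PBS 3 and -0.056 without PFF 3), did not pass. Plk2, a kinase that neurons also induce with activity, was at 232 ± 19.8 CPM in PFF and 183 ± 27.4 CPM in PBS (0.35 ± 0.10, adjusted p = 0.0670). In DESeq2 Plk2 rose (adjusted p = 0.0413). On the opposite strand 23.4% of the exonic bases of Ccnd1 overlap LTO1.

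Of the 14 other death and autophagy targets 3 fell (2.60% of all genes). They were Rps27l, which encodes a ribosomal protein paralog (-0.59 ± 0.12, adjusted p = 0.00792), Pidd1, which activates caspase-2 (-0.65 ± 0.17, 0.0351), and Pmaip1, which encodes the BH3-only protein NOXA (-0.50 ± 0.13, 0.0400). DESeq2 did not call Pidd1 or Pmaip1 (adjusted p = 0.0666 and 0.102), nor did edgeR with scaling by library size (0.0507 and 0.0534), and reads of Rps27l may be shared with its close paralog Rps27. Pmaip1 was at 8.14 ± 0.550 CPM in PFF and 11.5 ± 0.503 CPM in PBS. The nuclease gene Aen (-0.25 ± 0.09, adjusted p = 0.120) and the apoptosome gene Apaf1 (-0.28 ± 0.10, 0.131) did not pass. Their groups did not overlap, as for 25.0% of all genes. Of 22 DNA repair and metabolism targets 2 fell, the carbonyl reductase gene Dcxr (-0.83 ± 0.18, adjusted p = 0.0110) and the epoxide hydrolase gene Ephx1 (-0.37 ± 0.10, 0.0489). The PFF and PBS ranges of Ephx1 overlapped, and its call was lost in limma-voom (0.0559), in edgeR without robust estimation (0.0512), with the stricter count filter (0.0616) and with scaling by library size (0.0636). Abhd4, a lipid hydrolase gene (-0.29 ± 0.10, adjusted p = 0.116), and Ak1, an adenylate kinase gene (-0.18 ± 0.08, 0.234), did not pass.

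The number of the 52 that fell depended on the library left out, and so did the number over all genes. Omitting PFF 2 left 1 of the 52 that fell, Ckap2, with adjusted p of 0.0616 for Ccnd1, 0.0646 for Rps27l and 0.0603 for Dcxr. In the same setting it was 0.135 for Psrc1, 0.170 for Pidd1, 0.0915 for Pmaip1 and 0.249 for Ephx1. When PBS 1 was omitted 3 fell, when PFF 1 was omitted 4, and when PBS 2 was omitted 5. Without PBS 3 it was 6 and without PFF 3 it was 11. Over all genes 100 fell without PFF 2, 157 without PBS 1, 197 without PFF 1 and 234 without PBS 2. The number was 289 without PBS 3 and 987 without PFF 3, against 362 in the main fit. These fits with 1 library omitted tested 14044 to 14076 genes. Pmaip1 was called in no such fit except the one lacking PFF 3 (adjusted p = 0.0865 to 0.140 in the others), and Ephx1 was also lost on omitting PBS 1 (0.203), PBS 3 (0.137) or PFF 1 (0.148). With replicates 1 and 2 only, 10 of the list fell and Plk2 rose. Plk2 also rose on omitting PBS 2 (adjusted p = 0.0333) or PFF 3 (0.0123), and Gtse1, Aen and Abhd4 fell on omitting PFF 3 (0.0301, 0.0462 and 0.00702).

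**Figure D4:**
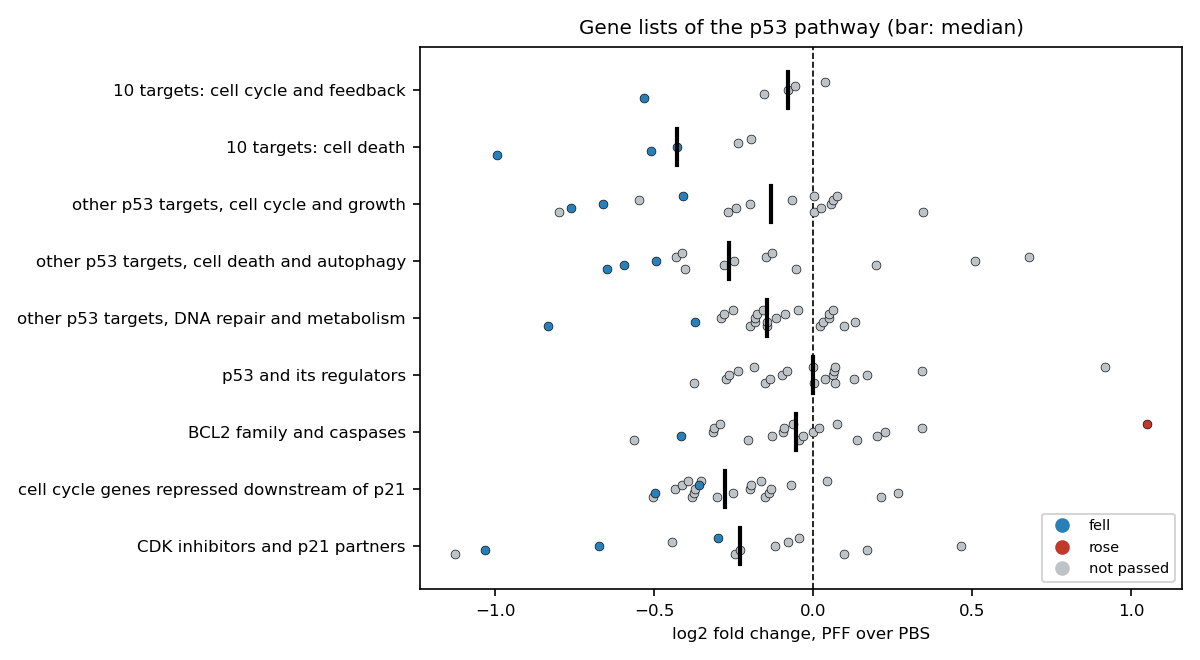
Log2 fold change of each tested gene (points, PFF over PBS) in 9 gene lists of the p53 pathway, coloured by the test result, with a bar at the median of each list. The points of the p53 regulators centre on 0, with a median of -9.4e-05, and those of the cell death targets lie to the left, with a median of -0.43.

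p53 and its regulators showed no call in the main fit. Of 20 tested genes 0 rose and 0 fell in edgeR, DESeq2 and limma-voom, and by unadjusted p under 0.05 in edgeR 1 was higher and 3 were lower, 4 of 20 against 21.2% of all genes. Trp53 itself was at 34.2 ± 1.34 CPM in PFF and 32.6 ± 2.26 CPM in PBS (0.07 ± 0.09, adjusted p = 0.717). Its negative regulator Mdm4 was at 86.5 ± 7.12 CPM in PFF and 95.01 ± 9.28 CPM in PBS (-0.14 ± 0.09, adjusted p = 0.417). The p53 kinase gene Hipk2 (-0.38 ± 0.12, adjusted p = 0.0827) and the ribosomal gene Rpl5, whose protein can bind Mdm2 (-0.27 ± 0.09, 0.117), had the smallest p-values. Hipk2 fell on omitting PFF 1 (adjusted p = 0.0368), without the low-count filter (0.0312) and with the replicate block (0.00812). Rpl5 fell on omitting PFF 3 (0.00324), with the replicate block (0.0187) and with replicates 1 and 2 only (0.000584). Neither was called in the remaining alternatives. p53 is controlled mainly through protein stability, which these data do not measure.

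Among 20 tested BCL2 family and caspase genes 1 rose (3.98% of all genes). Casp8, the initiator caspase of death receptors, was at 3.00 ± 0.305 CPM in PFF and 1.46 ± 0.592 CPM in PBS (1.05 ± 0.29, adjusted p = 0.0477). Casp8 missed the threshold in DESeq2 (0.0966), with upper-quartile scaling (0.0534), in replicates 1 and 2 only (0.0566) and in every fit lacking 1 library other than PBS 1 (0.0577 to 0.167). The survival genes Bcl2 (0.20 ± 0.10, adjusted p = 0.272) and Bcl2l1 (0.02 ± 0.08, 0.928; -0.037 without PFF 3) did not pass, nor did the death genes Bok (-0.57 ± 0.16, 0.0516) and Hrk (-0.31 ± 0.12, 0.140). On omitting PFF 3 both Bok and Hrk fell (0.0177 and 0.0243), as with the replicate block (0.0213 and 0.0183) and with replicates 1 and 2 only (0.0209 and 0.0462). Bok was also called with DESeq2 size factors (0.0498), with upper-quartile scaling (0.0496) and without the low-count filter (0.0346). Neither was called in the remaining alternatives. The count of Bax was 2.04, 1.72 and 2.58 times that of Bcl2 in PFF libraries and 2.68, 2.76 and 2.84 times in PBS libraries, lower in every PFF library, with exact permutation p = 0.1 as for the ratios above.

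Genes repressed downstream of p21 act mostly in mitosis and DNA replication. Of 22 tested genes 19 had a negative log2 fold change, against 6972 of all 13919 genes tested. By the test 0 rose and 2 fell, the mitotic factor gene Foxm1 (-0.50 ± 0.11, adjusted p = 0.0181) and the topoisomerase gene Top2a (-0.36 ± 0.09, 0.0317), and the median was -0.28. By unadjusted p under 0.05, 1 gene was higher and 11 were lower (10.6% and 10.5% of all genes). In DESeq2 and in limma-voom 0 also rose and 2 fell. Ccna2 (-0.43 ± 0.13, 0.0687) and Ccnb1 (-0.30 ± 0.11, 0.113) did not pass. Ccna2 was called on omitting PBS 3 or PFF 1 (0.0493 and 0.0295) and without the low-count filter (0.0226). It was also called with the replicate block (0.0358) and with replicates 1 and 2 only (0.0221). Without PFF 2 or PBS 2 Foxm1 did not pass (adjusted p = 0.110 and 0.0602), nor did Top2a without PFF 2, PBS 1 or PBS 2 (0.190, 0.0960 and 0.111) or with scaling by library size (0.0701). Among 13 other cell cycle inhibitors and partners of p21, 3 fell and 0 rose, against 2.60% and 3.98% of all genes. Ccnd2, a D-type cyclin, was at 176 ± 6.80 CPM in PFF and 281 ± 36.5 CPM in PBS (-0.67 ± 0.09, adjusted p = 0.000438) and stayed below the threshold whichever library was omitted. The CDK inhibitor gene Cdkn2b (-1.03 ± 0.24, 0.0197) did not pass without PBS 1 or PFF 2 (0.0910 and 0.108), and Cdk4 (-0.30 ± 0.08, 0.0477) held only in the fit lacking PFF 3 among those with 1 library omitted (0.0604 to 0.245 in the others). The Cdk4 call was also lost in limma-voom (0.0519), which called 2 of this list, in edgeR without robust estimation (0.0503), with the stricter count filter (0.0558) and with scaling by library size (0.0818). Cdkn1c (-1.13 ± 0.33, 0.0585) and Cdkn2c (-0.44 ± 0.15, 0.101) were not called in the main fit. Cdkn1c fell without the low-count filter (0.0467), with the replicate block (0.0366) and with replicates 1 and 2 only (0.0308). On the opposite strand 19.7% of the exonic bases of Cdk4 overlap Tspan31. In the same libraries 9 of 10 markers of oligodendrocyte progenitors, cells that divide in such cultures, fell, and whether these results move with them was not tested.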

How the data were processed

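Total RNA was made into strand-marking libraries (per the labels' protocols). The authors deposited estimated counts, 1 column per sample, which were not scaled between libraries, and 8.69% of them were not whole numbers. Trim Galore 0.6.6, STAR 2.7.9a, DESeq2 1.38.3 and the mm10 genome are named by the submitters' processing notes, and the series' design text names RNAseqChef. Which tool, strand setting and gene models produced the counts was not given in the sources used here, so reads of overlapping genes may have been shared.

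Estimated counts were rounded. In R 4.3.3 with edgeR 4.0.16, genes were filtered by filterByExpr (10492 of 24411 removed), normalised by the trimmed mean of M-values (TMM) and tested with the robust quasi-likelihood F-test on the group alone, two-sided, with Benjamini-Hochberg adjustment. A call is an adjusted p under 0.05, and calls in lists are counted without a test of the list. The standard error is the size of the log2 fold change divided by the square root of F. Library totals of 9224974 to 10742383 set the depth. The fit was tested on simulated data, where it recovered 15 of 50 genes changed 1.25-fold, 44 of 50 changed 1.5-fold and 50 of 50 changed 2-fold. It made 14 false calls. The simulation gave all genes the same dispersion and changed only genes above a count of 50, so it was simpler than these data. Alternatives were other scalings (DESeq2 size factors, upper quartile, library size), filters and tests (DESeq2 1.42.0, limma-voom with limma 3.58.1, edgeR without robust estimation), a replicate block, each library left out, and replicates 1 and 2 only. The 10 members, the lists and the gene pairs were chosen with earlier results of these data known. Named beyond the members were the called genes of each list (at most 6), the next 2 by p, and 9 regulators or targets set by name. Cop1 was found under its older symbol Rfwd2. Exon overlaps and lengths came from GENCODE M21 (GRCm38, the assembly of mm10). A result on the BCL2 family and caspase list is not reported here.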

Additional observations from a re-analysis of the deposited data

How the results depend on the processing

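No member rose under any alternative, and 4 fell in each change of scaling, filter or test and with the replicate block; 5 fell with replicates 1 and 2 only. With each library left out, the members that fell numbered 2 to 5 (cell cycle and feedback 1 to 1, cell death 1 to 4), those that rose 0 to 0. Over all genes the range was 412 to 1858 changed, 312 to 871 higher and 100 to 987 lower, and over the 52 other targets 1 to 11 lower and 0 to 1 higher. Other targets lower numbered 5 with scaling by library size, and 1 was higher, Plk2, without the low-count filter and in DESeq2. The replicate block gave 1997 changed genes (1043 higher, 954 lower), with 13 other targets lower and 1 higher. The labels do not say whether replicate numbers pair the libraries. Deviations of same-numbered libraries correlated at 0.0919, 0.109 and 0.202, and those of differently numbered libraries at -0.207 to 0.128. The highest of the latter was PFF 1 with PBS 2. These values do not settle the pairing. Replicates 1 and 2 only gave 2394 changed genes (1225 higher, 1169 lower), with 1 other target higher. Signs turned for 3 uncalled genes. With 1 library left out the log2 fold change was -0.037 to 0.059 for Bcl2l1 (-0.0023 without PBS 2), -0.056 to 0.20 for Gadd45a (-0.018 without PBS 3) and -0.094 to 0.016 for Ccng2; replicates 1 and 2 only gave -0.00077 for Bcl2l1 and -0.13 for Gadd45a. The cause was not tested. Bbc3 had the fewest counts of the members, with at most 46 in a library.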
